A study of Mus musculus with 2 samples.

Results

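The genes described here are the nuclear genes of oxidative phosphorylation, chosen by their symbols as *Nduf*, *Sdha* to *Sdhd*, *Uqcr*, *Cox4* to *Cox8*, *Cox10* to *Cox19* and *Atp5* genes. The symbols picked out 100 of the 21041 genes in the deposited table, of which 36 encode subunits of complex I, 4 of complex II, 8 of complex III, 19 of complex IV and 15 of complex V, and 18 encode assembly factors or related proteins. Their mRNA was measured by RNA-seq in double-positive (DP) thymocytes, the CD4- and CD8-bearing cells that make up most of the thymus, in 1 library from wild-type (WT) mice and 1 from *Cxxc1*-deficient mice. CXXC1 is a protein that binds unmethylated CpG dinucleotides and belongs to a complex that trimethylates lysine 4 of histone H3. According to the methods of the study, the WT mice carried the floxed allele without Cre (*Cxxc1* fl/fl) and the deficient mice carried it together with h*CD2*-Cre, which is active from the early thymocyte stages and also in other immune cells, whereas the label of the deficient sample gives the genotype as Cxxc1+/-. The methods of the study give its mice as a few weeks old unless stated otherwise, and the number of mice behind each library is not given in the sources used here.

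Oxidative phosphorylation takes place in the inner mitochondrial membrane. Complexes I and II feed electrons from NADH and succinate into the chain, complex III passes them to cytochrome c, complex IV hands them to oxygen, and complex V, the ATP synthase, uses the proton gradient that complexes I, III and IV build up. A small part of the subunits is encoded in the mitochondrial genome and the large majority in the nucleus, so the complexes are put together with the help of many assembly factors, among them COX17, a copper chaperone of the intermembrane space that hands copper on for insertion into complex IV. Genes of the mitochondrial genome are not analysed here, since no symbol in the table starts with the prefix mt-.

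The deposited values are normalized expression values rounded to whole numbers by the authors. They behaved as reads per length of transcript, so that levels of different genes can be set side by side, and 1 read per kb of transcript corresponded to approximately 4.06 in the WT library and 4.70 in the *Cxxc1*-deficient library. The median value was 36 in both libraries, the sum over all genes was 1551994 in WT and 981677 in the deficient library, and the values corresponded to approximately 1202221 and 633203 reads on annotated genes. With 1 library per genotype there is no replicate error and no test, and the 95% intervals printed below, computed from the approximate numbers of reads (Clopper-Pearson), hold counting error alone and set library against library, not genotype against genotype. *Cxxc1* itself was 91 in WT and 50 in the deficient library, a ratio of 0.549 (interval 0.338 to 0.877), and a value over the whole gene tests the deletion in part, as Cre removes some of the exons. All 10 listed DP markers were above 0 in both libraries and lower in the deficient library, and their median value was 2166.5 in WT and 540 in the deficient library. At least 2-fold lower were 9 of them. Each had a mean of both libraries of at least 100, a level at which 95.2% of all genes were lower and 56.8% at least 2-fold lower. The 4 markers of the earlier double-negative (DN) stage were all higher in the deficient library, with a ratio of summed reads of 2.07 (interval 1.72 to 2.48). *Il2ra*, at 63 in WT and 207 in the deficient library, held approximately 69 of their 187 WT reads and 195 of their 333 deficient reads. The interval lay above 1 for *Il2ra* and *Cd44* (all genes: 2.07%). It spanned 1 for *Il7r* (0.761 to 2.40) and for *Kit*, which was 35 and 36. Of 15 genes of the Y chromosome in the table, 0 were above 0 in WT and 7 in the deficient library. The part of the markers and of the sex chromosomes in the differences below was not tested, and in bulk RNA fewer cells of a type and less RNA per cell cannot be told apart.

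The members carried promoters rich in CpG, the dinucleotide that CXXC1 binds. RefSeq promoter windows (GRCm38.p6, from 250 bases before to 50 bases after the start of transcription) were matched for 82 of the 100 members, in 89 entries, 3 members through a newer symbol. The windows of the members held a median of 20 CpG, against 7 over all 32851 promoter entries. The windows of 4 members are shown because they span the range of responses described below. *Atp5b* had the highest value of all members, *Uqcrh* one of the largest differences between the libraries, *Atp5d* one of the smallest at a high level, and *Cox8b* is a muscle isoform with few CpG. Each is printed 5′ to 3′ with its CpG in capitals, and for *Atp5d* it is 1 of its 2 entries.
Atp5b, chr10:128083057-128083356 (plus strand): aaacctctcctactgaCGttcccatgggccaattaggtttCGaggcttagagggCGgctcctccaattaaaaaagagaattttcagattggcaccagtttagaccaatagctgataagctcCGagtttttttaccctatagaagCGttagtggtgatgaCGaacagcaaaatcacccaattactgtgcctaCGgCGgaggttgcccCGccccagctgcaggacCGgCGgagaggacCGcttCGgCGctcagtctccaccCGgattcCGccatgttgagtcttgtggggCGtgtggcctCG
Uqcrh, chr4:116075021-116075320 (minus strand): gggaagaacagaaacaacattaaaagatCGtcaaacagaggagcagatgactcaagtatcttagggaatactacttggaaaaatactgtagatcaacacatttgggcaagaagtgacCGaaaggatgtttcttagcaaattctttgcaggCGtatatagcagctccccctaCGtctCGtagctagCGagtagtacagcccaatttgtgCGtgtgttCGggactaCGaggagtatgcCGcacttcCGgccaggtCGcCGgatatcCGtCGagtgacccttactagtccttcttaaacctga
Atp5d, chr10:80142025-80142324 (plus strand): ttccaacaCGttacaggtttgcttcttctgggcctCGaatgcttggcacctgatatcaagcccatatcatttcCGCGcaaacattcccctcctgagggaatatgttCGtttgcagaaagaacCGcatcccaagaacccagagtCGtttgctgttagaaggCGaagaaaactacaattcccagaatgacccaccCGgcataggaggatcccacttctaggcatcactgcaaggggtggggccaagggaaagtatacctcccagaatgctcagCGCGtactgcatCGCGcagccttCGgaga
Cox8b, chr7:140900397-140900696 (minus strand): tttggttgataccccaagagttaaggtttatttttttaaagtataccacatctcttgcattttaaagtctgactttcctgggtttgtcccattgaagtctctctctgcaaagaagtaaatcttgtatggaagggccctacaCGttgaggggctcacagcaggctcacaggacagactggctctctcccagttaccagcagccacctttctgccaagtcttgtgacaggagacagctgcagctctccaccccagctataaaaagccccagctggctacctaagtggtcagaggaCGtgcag
The windows of *Atp5b*, *Uqcrh* and *Atp5d* held 18, 15 and 14 CpG, and that of *Cox8b* held 2. The CpG numbers of *Uqcrh* and *Atp5d* were close to each other, while the values of these genes in the libraries were not, as given below.

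Short motifs of factors known to act on nuclear respiratory genes were found in the promoters of the members more often than in promoters at large. The letters CCGGAAG, bound by ETS factors such as GABPA, were present on either strand in 24.7% of the 89 windows of members and in 8.86% of all promoter windows. The letters GCATGCG, the core bound by NRF1, were present in 14.6% and 3.58%, and the letters GATGGCG, bound by YY1, in 16.9% and 3.49%. Each of the 3 motifs contains a CpG, and the windows of members held a median of 20 CpG, against 7 over all promoter windows. The shares were not compared with those of promoters of like CpG number, so a link of the motifs to these genes beyond CpG number was not tested. GCATGCG overlaps its own reverse complement, so a match on both strands can come from the same bases. *Atp5j*, which encodes a coupling subunit of the ATP synthase stalk, had all 3 motifs in 1 of its 2 windows, printed here with the matches in capitals.
Atp5j, chr16:84834927-84835226 (minus strand): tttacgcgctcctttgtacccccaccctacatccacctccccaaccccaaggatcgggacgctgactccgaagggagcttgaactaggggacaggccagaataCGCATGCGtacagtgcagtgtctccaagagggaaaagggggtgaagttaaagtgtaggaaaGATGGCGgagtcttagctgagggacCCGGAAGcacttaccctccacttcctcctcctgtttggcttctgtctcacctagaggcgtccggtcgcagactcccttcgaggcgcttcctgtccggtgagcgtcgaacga
A match is a description of these letters and not a site of binding.

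Among the 94 members above 0 in at least 1 library, 82 were lower, 2 equal and 10 higher in *Cxxc1*-deficient cells, and over all 20125 genes above 0 the share that was lower was 60.0%. The remaining 6 members were listed at 0 in both libraries. Scaling the libraries to the same sum, which shifts every log2 ratio by 0.66, left 62.8% of the 94 lower, and scaling them to an equal median of the genes at or above 100, a shift of 1.08, left 48.9%. With the values as deposited, at least 2-fold lower were 46 members (41 when a 0 is set to the value of 3 reads), against 17.4% of all genes, and at least 2-fold higher were 4 members, against 5.89% of all genes. The median value of the 94 members was 73 in WT and 39 in the deficient library, and their median log2 ratio (deficient to WT, values under 1 raised to 1) was -0.90, against -0.20 over all genes. The interval of the ratio lay below 1 for 35 of the 94 members, against 20.8% of all genes with an interval, and above 1 for 0 members, against 2.07%. Approximately 3744 reads fell on the members in WT and 1295 in the deficient library, a ratio per length of 0.401 (interval 0.376 to 0.428), against 0.611 for the summed reads of all genes, and every ratio of summed reads below is to be read against that value rather than against 1.

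The ratio went with the level of a gene in these libraries, so the members were also read against genes of their own level, taken as the mean of both libraries. Of 42 members with a mean under 50, 32 were lower (all genes of this level: 47.8%) and 15 at least 2-fold lower (9.75%). Of 37 members with a mean from 50 to 100, 35 were lower (82.6%) and 18 at least 2-fold lower (20.0%). All 15 members at or above a mean of 100 were lower (95.2%) and 13 of them at least 2-fold lower (56.8%), with a median log2 ratio of -1.63, against -1.08 over the 2472 genes of that level. The ratio of summed reads was 0.630 for the low members (all genes of this level: 0.991), 0.491 for the middle members (0.699) and 0.315 for the high members (0.455). At least 2-fold higher were 4 members of the low band (8.22%), 0 of the middle band (0.656%) and 0 of the high band (0.485%). The interval lay below 1 for 6 of the low members (3.43%), 16 of the middle members (39.7%) and 13 of the high members (87.1%). The share of members at least 2-fold lower was therefore above that of all genes in each of the 3 bands. Members rested on fewer reads than genes of their level, with median WT reads of 6.5, 20 and 79, against 15, 53 and 191. The 15 low members include *Ndufb2* and *Cox7c*, at 0 in the deficient library on approximately 1 WT read each. The share with an interval below 1 was near that of all genes in the middle and high bands, at 43.2% and 86.7%. How far read number sets the 2-fold shares was not tested. For the high members the median ratio of genes of that level, 0.471, served as the reference. The interval lay wholly below this reference for 7 members, *Sdhd*, *Sdhc*, *Uqcrfs1*, *Uqcrh*, *Atp5b*, *Atp5a1* and *Atp5g3*, wholly above it for 1, *Atp5d*, and spanned it for 7, whereas 23.0% of all such genes lay below and 23.3% above.

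**Figure D1:**
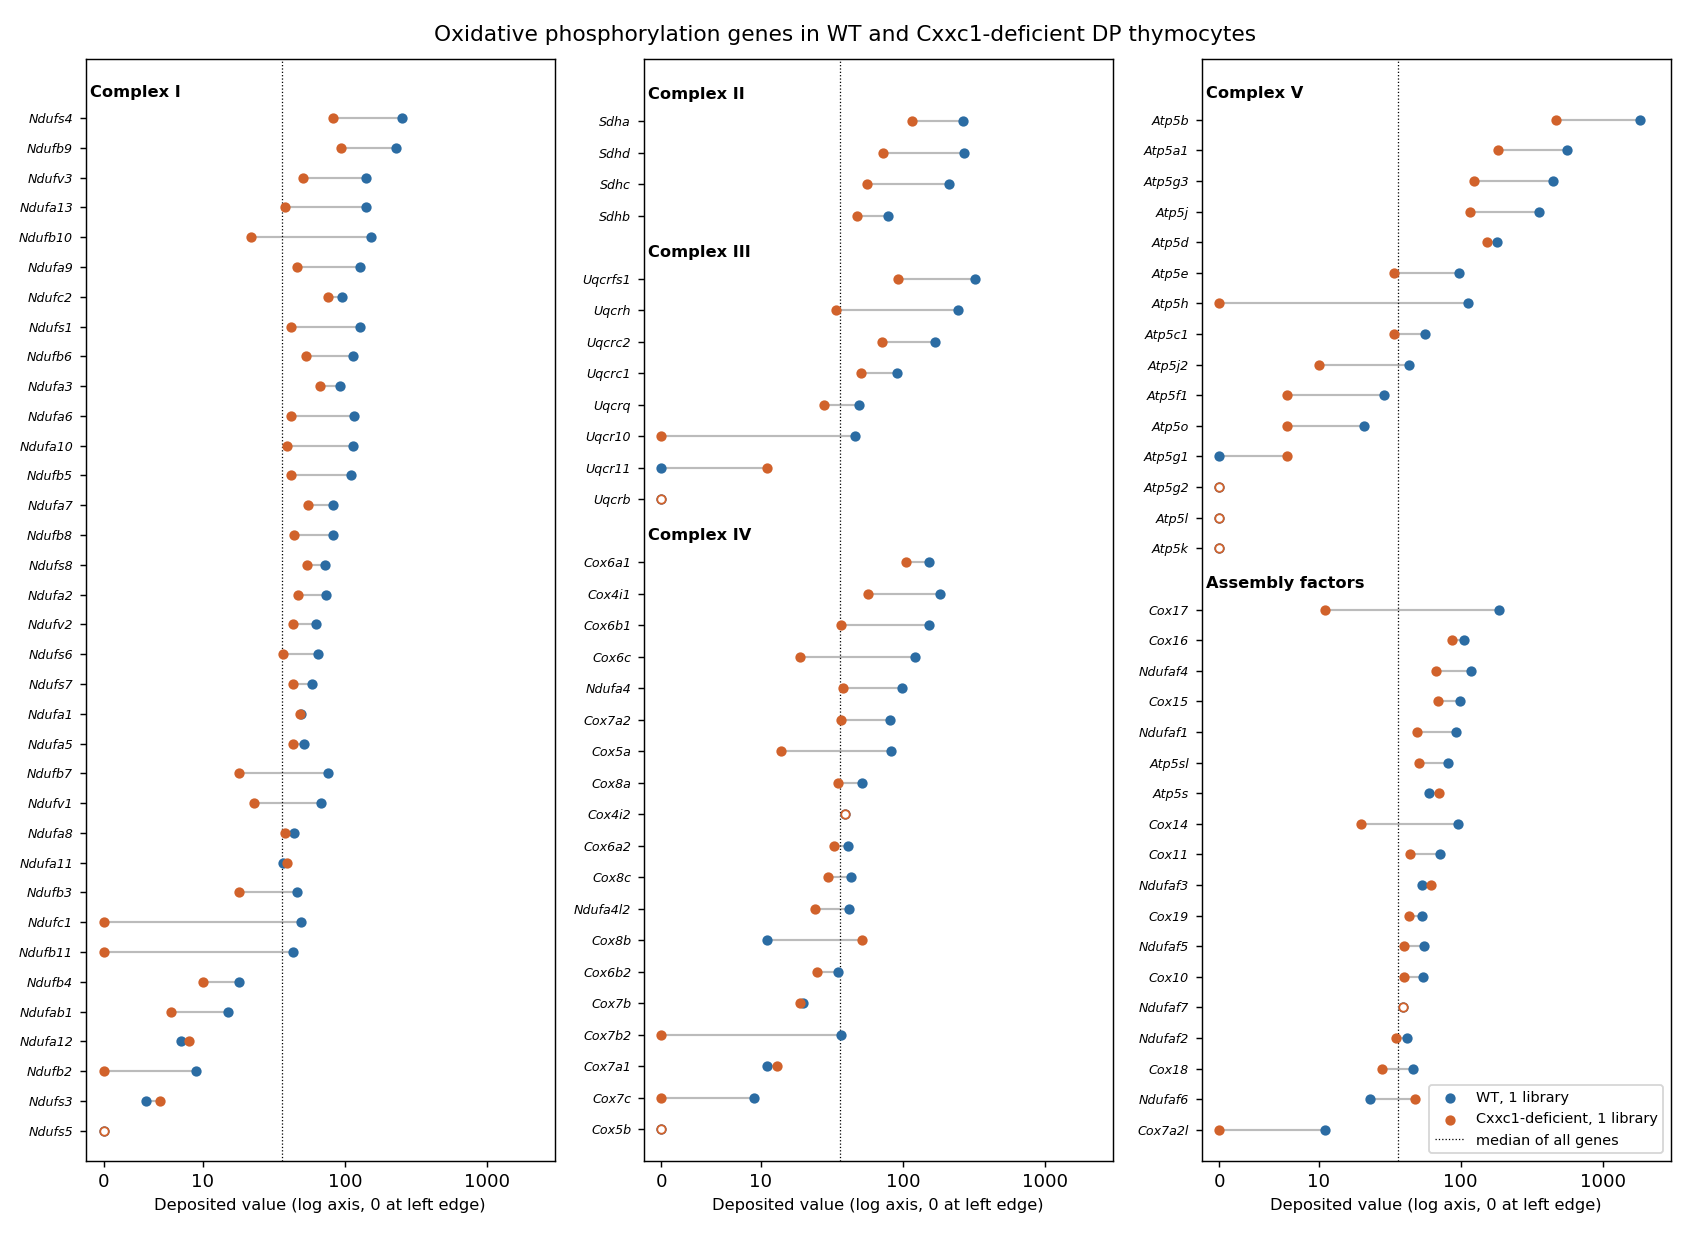
Deposited values of the members in the WT library (blue) and the *Cxxc1*-deficient library (orange), by complex, on a log axis that has 0 at its left edge; open circles mark members with the same value in both, and the dotted line is the median of all genes, 36. The deficient library lies to the left for most members, and complex V spans the widest range, from *Atp5b* (1815 and 471) to 3 members at 0 in both.

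**Figure D2:**
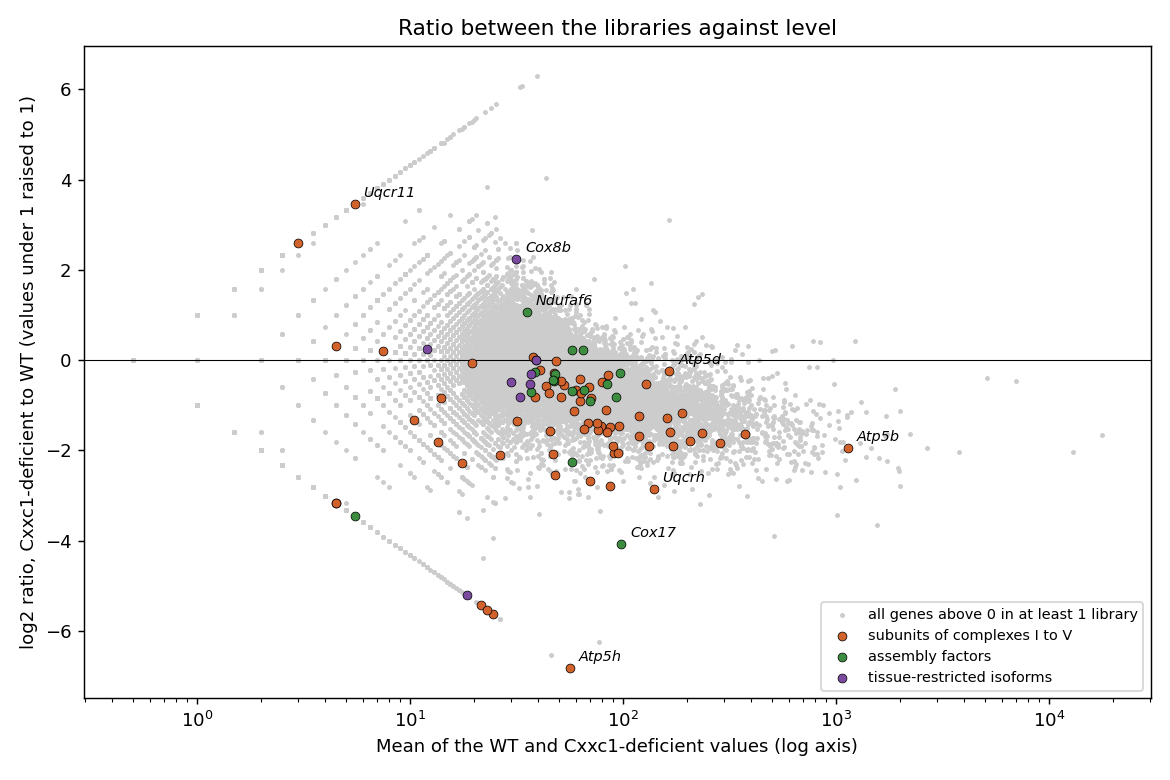
Log2 ratio of the deficient to the WT value against the mean of both libraries (log axis) for the members, in colour by kind, and for all genes above 0, in grey. The cloud of all genes drops below 0 as the level rises, and *Cox17*, *Uqcrh* and *Atp5h* lie near its lower edge while *Atp5d* lies near its upper edge.

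*Cox17* (ENSMUSG00000046516, NCBIM37 chr16:38347077-38362383, plus strand) was the member with the largest difference among those above 0 in both libraries. It stood at 186 in WT and at 11 in the deficient library, corresponding to approximately 20 reads and 1 read. In WT it was higher than every other assembly factor, the next being *Ndufaf4* at 118, and in the deficient library it was lower than every other assembly factor above 0. The value was 16.9-fold lower, with an interval from 2.76 to 715 that is wide because 1 read stands behind the deficient value. None of the 50-base stretches of its transcript occurred at another place in the genome within 2 mismatches.

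Of 10 genes listed for the delivery of copper to complex IV, 8 were lower (all genes: 60.0%) and 1 was at least 2-fold lower (all genes: 17.4%), *Cox17* itself. *Sco1*, which receives copper from COX17, was 45 in WT and 36 in the deficient library (ratio 0.80, interval 0.414 to 1.60). *Cox11*, the factor that serves the other copper site of the enzyme, was 71 and 44 (ratio 0.620, interval 0.265 to 1.32). *Cox19* was 53 and 43 (ratio 0.811, interval 0.442 to 1.42), so that the intervals of all 3 spanned 1. *Slc31a1*, the copper importer of the plasma membrane, was 148 and 75 (ratio 0.507, interval 0.364 to 0.688). *Slc25a3*, a mitochondrial carrier of phosphate and copper, was 303 and 202 (ratio 0.667, interval 0.478 to 0.939). The importer and the carrier were thus the remaining copper genes with an interval below 1. Both had a mean of at least 100, a level at which 87.1% of all genes had an interval below 1. The interval of *Slc31a1* spanned the median ratio of genes of that level, 0.471, and that of *Slc25a3* lay above it. *Coa6* was the gene of this list that was at least 2-fold higher, with 64 in WT and 154 in the deficient library.

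Assembly factors as a group differed less between the libraries than subunits did. Of the 18 assembly factors, 14 were lower, 1 equal and 3 higher, 3 were at least 2-fold lower, or 16.7%, near the 17.4% of all genes, and their summed reads had a ratio of 0.692 (interval 0.603 to 0.793), above the 0.611 of all genes. Of the 76 subunits above 0, 68 were lower and 43 at least 2-fold lower, with a ratio of 0.349 (interval 0.324 to 0.375). The intervals of the sums did not overlap. In the band from 50 to 100, where most of the assembly factors lay, 2 of 10 assembly factors and 16 of 27 subunits were at least 2-fold lower, and the ratios were 0.649 (interval 0.552 to 0.761) and 0.393 (interval 0.337 to 0.456), where all genes of this band had 20.0% at least 2-fold lower and a ratio of 0.699. These sums weight a gene by its reads, and the median log2 ratio was -0.49 for the 18 assembly factors and -1.31 for the 76 subunits.

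*Cox16*, needed for the biogenesis of the core of complex IV, was 106 in WT and 87 in the deficient library (ratio 0.821, interval 0.526 to 1.28). *Ndufaf4*, which acts early in the assembly of complex I, was 118 and 67 (ratio 0.568, interval 0.400 to 0.80). *Ndufaf3*, which acts together with *Ndufaf4*, was 53 and 62 (ratio 1.17, interval 0.513 to 2.63). The interval of *Ndufaf4* lay below 1 and those of *Cox16* and *Ndufaf3* spanned it. *Cox10* and *Cox15*, which make the heme A of complex IV, were 54 and 40, and 99 and 69. *Cox14*, which attends the newly made mitochondrial core subunit, was 95 and 20, 4.75-fold lower (interval 1.41 to 26), the largest difference next to *Cox17* among assembly factors above 0 in both libraries. *Ndufaf6* was 23 and 48 (ratio 2.09, interval 0.721 to 7.0). *Atp5s* was 60 and 70, *Ndufaf7* 39 in both, and *Cox7a2l* 11 in WT and listed at 0 in the deficient library. The remaining 7 (*Cox11*, *Cox18*, *Cox19*, *Ndufaf1*, *Ndufaf2*, *Ndufaf5* and *Atp5sl*) ranged from 42 to 92 in WT and from 28 to 51 in the deficient library, and each was lower there.

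Complex V had the highest members and the lowest ratio of summed reads of the groups, 0.297 (interval 0.264 to 0.333), with 11 of 12 members above 0 lower and 9 at least 2-fold lower. *Atp5b* (ENSMUSG00000025393, NCBIM37 chr10:127520329-127527447, plus strand), the catalytic beta subunit, was 1815 in WT and 471 in the deficient library, 3.85-fold lower (interval 3.29 to 4.53). *Atp5a1*, the alpha subunit that alternates with it in the catalytic ring, was 564 and 182, 3.10-fold lower (interval 2.46 to 3.91). Their values rested on approximately 858 and 344 reads in WT, and they had the narrowest intervals of the members with *Sdha*. As approximately 1450 WT reads fell on complex V, its ratio of summed reads is largely that of these 2 genes. The median log2 ratio of complex V, which weights its 12 members above 0 alike, was -1.72. *Atp5j* was 356 and 117, 3.04-fold lower. *Atp5d* (NCBIM37 chr10:79601377-79608563, plus strand), the delta subunit of the central stalk, was 179 and 152, 1.18-fold lower (interval 0.718 to 1.95). *Atp5d* was below *Atp5b*, *Atp5a1*, *Atp5g3* and *Atp5j* in WT, and above *Atp5g3* (125) and *Atp5j* (117) in the deficient library. *Atp5e*, the epsilon subunit of the same stalk, was 98 and 34, and *Atp5c1*, the gamma subunit, 56 and 34. *Atp5f1*, *Atp5j2* and *Atp5o*, of the stator and the membrane part, were 29 and 6, 43 and 10, and 21 and 6. *Atp5h*, another stator subunit, was 113 in WT and listed at 0 in the deficient library, and 88.0% of the 50-base windows of its transcript occurred at several places in the genome.

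The c subunit, which forms the rotor ring, is made from 3 genes that encode the same mature protein. *Atp5g3* (NCBIM37 chr2:73746504-73749383, minus strand) was 448 in WT and 125 in the deficient library, 3.58-fold lower (interval 2.15 to 6.26). *Atp5g1* was listed at 0 in WT and at 6 in the deficient library, approximately 1 read, and *Atp5g2* at 0 in both. The 3 genes differed in how much of their sequence can be told from copies, since 4.06% of the windows of *Atp5g3*, 86.7% of those of *Atp5g1* and 100% of those of *Atp5g2* occurred at several places.

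Complex III was lower in 6 of the 7 members above 0, 4 of them at least 2-fold, with a ratio of summed reads of 0.350 (interval 0.269 to 0.451). *Uqcrfs1*, the Rieske iron-sulfur protein, was 321 in WT and 93 in the deficient library, 3.45-fold lower (interval 2.24 to 5.47). *Uqcrh* (ENSMUSG00000063882, NCBIM37 chr4:115739570-115747676, minus strand), the hinge protein at the contact with cytochrome c, was 245 and 34, 7.21-fold lower (interval 2.53 to 27.6), on approximately 33 and 4 reads. *Uqcrc2* and *Uqcrc1*, the core proteins, were 168 and 71, and 91 and 51. The core proteins thus differed less than the Rieske and hinge proteins, although the interval of *Uqcrc2*, from 1.52 to 3.80-fold lower, overlapped with both. *Uqcrq* was 49 and 28, *Uqcr10* 46 in WT and listed at 0 in the deficient library, *Uqcr11* listed at 0 in WT and 11 in the deficient library, and *Uqcrb* at 0 in both.

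All 4 subunits of complex II were lower, 3 of them at least 2-fold, with a ratio of summed reads of 0.357 (interval 0.294 to 0.432). Complex II is also an enzyme of the tricarboxylic acid cycle and is encoded by nuclear genes alone. *Sdha*, the flavoprotein, was 264 in WT and 117 in the deficient library, 2.26-fold lower (interval 1.72 to 3.01). *Sdhb*, the iron-sulfur subunit, was 79 and 48, 1.65-fold lower (interval 0.749 to 3.50). *Sdhc* and *Sdhd* encode the membrane anchors. *Sdhc* was 210 and 56, 3.75-fold lower (interval 2.60 to 5.44), and *Sdhd* 271 and 73, 3.71-fold lower (interval 2.26 to 6.37). The anchors had ratios of deficient to WT close to each other, and their intervals lay below the reference of genes of their level, while that of *Sdha* spanned it.

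Of the 35 subunits of complex I above 0, 32 were lower and 19 at least 2-fold lower, with a median log2 ratio of -1.29 and a ratio of summed reads of 0.408 (interval 0.356 to 0.468). *Ndufs4*, an accessory subunit near the NADH-oxidizing module, was 251 in WT and 83 in the deficient library, 3.02-fold lower (interval 1.96 to 4.84). *Ndufb9*, of the membrane arm, was 230 and 94, 2.45-fold lower (interval 1.27 to 5.03). *Ndufv3* was 141 and 51, 2.76-fold lower (interval 1.59 to 5.13). The widest difference among subunits of complex I above the median of all genes was that of *Ndufb10*, another subunit of the membrane arm, at 153 and 22, 6.95-fold lower (interval 2.49 to 41.4). *Ndufa11* was 37 and 39 (ratio 1.05, interval 0.568 to 1.98), the largest rise among complex I subunits above the median of all genes, and *Ndufa1* was 49 and 48. Core subunits, which are conserved from bacteria and among other roles carry the flavin and the iron-sulfur clusters, were on both sides of the median of the group. *Ndufs1* was 127 and 42 and *Ndufv1* 68 and 23, both with an interval below 1. *Ndufs7* was 59 and 43, *Ndufs8* 72 and 54 and *Ndufv2* 63 and 43, all with an interval that spanned 1. *Ndufs3*, another core subunit, was 4 and 5, and 64.5% of its windows occurred at several places.

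Complex IV, which includes isoforms known from other tissues, had the lowest median of the 5 complexes in WT, 42.5. Of its 18 members above 0, 15 were lower and 8 at least 2-fold lower, with a median log2 ratio of -0.69 and a ratio of summed reads of 0.477 (interval 0.359 to 0.629). These 18 include the 8 tissue-restricted isoforms described below, of which 1 was at least 2-fold lower. The isoforms had a median log2 ratio of -0.40, so the median of complex IV is in part theirs and does not stand for its widely expressed subunits alone. *Cox4i1*, the widely expressed form of the largest nuclear subunit, was 182 in WT and 57 in the deficient library, 3.19-fold lower (interval 1.45 to 8.16). *Cox6a1* was 152 and 106, 1.43-fold lower (interval 0.665 to 3.03). *Cox6b1* was 153 and 37, 4.14-fold lower (interval 1.36 to 16.5), and *Cox6c* 121 and 19, 6.37-fold lower (interval 1.5 to 58.3). *Cox6a1* thus had an interval that spanned 1, unlike the other 3, and it was the highest of complex IV in the deficient library. *Ndufa4*, named for complex I and since placed in complex IV, was 99 and 38. *Cox5a* was 82 and 14, *Cox7a2* 81 and 37, *Cox8a* 52 and 35 and *Cox7b* 20 and 19. *Cox7c* was 9 in WT and listed at 0 in the deficient library, and *Cox5b* was at 0 in both.

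The isoforms of complex IV that are known from heart and skeletal muscle, testis, lung or hypoxic cells served as a gauge of the level at which a value says little, as DP thymocytes are not known for them. The 8 isoforms ranged from 11 to 43 in WT and from 0 to 52 in *Cxxc1*-deficient cells, with medians of 38 and 27.5, on at most approximately 10 and 6 reads each. Their summed reads had a ratio of 0.764 (interval 0.452 to 1.27). *Cox4i2* was 39 in both libraries, and *Cox6a2*, *Cox6b2*, *Cox8c* and *Ndufa4l2* went from 41 to 33, 35 to 25, 43 to 30 and 42 to 24. *Cox7a1* was 11 and 13, *Cox7b2* 37 and listed at 0, and *Cox8b* 11 and 52, or approximately 1 and 4 reads (ratio 4.73, interval 0.459 to 229). None of the 8 had an interval that left out 1. Of the 92 other members, 68 were above the highest isoform in WT (43), 24 were above the highest isoform in the deficient library (52), and these 24 were above in both. Of those 24, 22 were lower, and the median over all 24 was 2.20-fold lower. The 44 members above the isoforms in WT alone were at or below the highest isoform in the deficient library. That limit is set by *Cox8b* and its approximately 4 reads, and without *Cox8b*, a choice made after seeing the data, the highest isoform in the deficient library was at 39, 44 members were above it there, and 25 members were above the isoforms in WT alone.

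**Figure D3:**
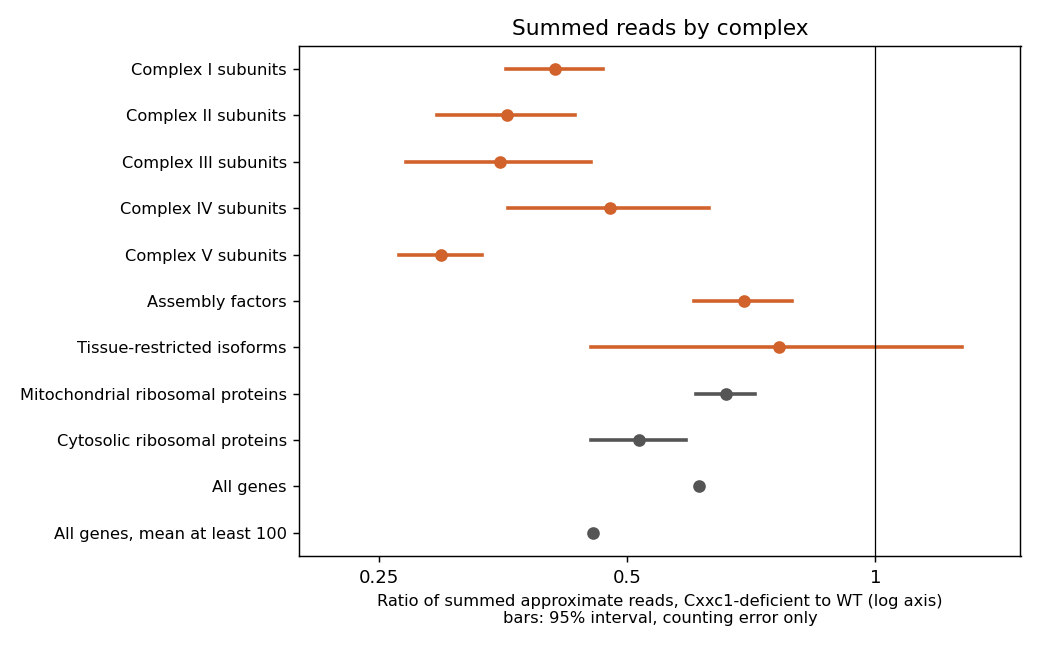
Ratio of summed approximate reads, *Cxxc1*-deficient to WT (log axis), for each complex, the assembly factors, the tissue-restricted isoforms and the sets of genes set beside them, with 95% intervals that cover counting error. The 5 complexes lie between 0.297 and 0.477, the assembly factors at 0.692, and the isoforms alone have an interval that reaches past 1.

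The authors kept only uniquely mapped reads, and many members have copies elsewhere in the genome. Each 50-base window of a member's transcript was searched in NCBIM37 (the build of mm9) with up to 2 mismatches. The share of windows found at several places had a median of 85.9% (48.8% to 100%) in the 6 members at 0 in both libraries, 51.6% in the 8 at 0 in the deficient library only, 80.4% in the 2 at 0 in WT only, and 1.65% (0% to 65.4%) in the 84 above 0 in both. The 6 members at 0 in both were *Ndufs5*, *Uqcrb*, *Cox5b*, *Atp5g2*, *Atp5l* and *Atp5k*, all of them subunits that cells with a respiratory chain use. The values of members with many copies, a listing at 0 included, are uncertain. Coding windows of 4 members and their copies are shown to make this visible, with the bases in which a copy differs in capitals.
Atp5g2, gene, chr15:102493497-102493546 (minus strand): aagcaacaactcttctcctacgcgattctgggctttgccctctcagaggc
Atp5g2, copy, chr17:5816252-5816301 (minus strand): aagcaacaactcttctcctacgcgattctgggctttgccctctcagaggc
Atp5g2, further copy, chr7:24731863-24731912 (minus strand): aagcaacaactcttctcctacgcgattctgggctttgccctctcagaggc
Uqcrb, gene, chr13:67002455-67002504 (minus strand): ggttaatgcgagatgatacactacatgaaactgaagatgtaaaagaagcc
Uqcrb, copy, chr14:13700158-13700207 (plus strand): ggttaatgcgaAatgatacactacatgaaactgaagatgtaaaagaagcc
Cox5b, gene, chr1:36749296-36749345 (plus strand): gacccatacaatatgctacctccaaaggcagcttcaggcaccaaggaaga
Cox5b, copy, chr13:21593061-21593110 (minus strand): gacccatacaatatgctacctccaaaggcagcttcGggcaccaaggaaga
Uqcrh, gene, chr4:115742545-115742594 (minus strand): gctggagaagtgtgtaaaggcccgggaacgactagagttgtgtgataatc
Uqcrh, copy, chr15:99728825-99728874 (minus strand): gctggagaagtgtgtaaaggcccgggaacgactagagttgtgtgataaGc
Uqcrh, further copy, chr2:118834055-118834104 (plus strand): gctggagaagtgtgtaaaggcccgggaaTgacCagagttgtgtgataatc
The window of *Atp5g2* occurred without a mismatch at 4 places, and all 598 windows of this gene also occurred at the annotated pseudogenes *Gm10231* on chromosome 17 and *Gm10175* on chromosome 7. The copy of *Uqcrb* shown differs by G12A, that of *Cox5b* by A36G, and those of *Uqcrh* by T49G and by C29T and T33C, counted from 1 at the 5′ end of the window with the base of the gene given before the position. *Uqcrh* was measured at 245 in WT although 45.8% of its windows had copies, and how the authors' mapping treated reads from those windows is not given in the sources used here.

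Over the 100 members, the share of windows at several places and the value had a Spearman correlation of -0.39 for the WT library and -0.56 for the deficient library, given as a description, since the points share a library and are not replicates. Of 52 members above 0 with under 5% of windows at several places, 21 were at least 2-fold lower and the summed reads had a ratio of 0.460 (interval 0.424 to 0.499). Of 31 members with 5% to 50%, 19 were at least 2-fold lower with a ratio of 0.325 (interval 0.291 to 0.361). Of 11 members with at least 50%, 6 were at least 2-fold lower with a ratio of 0.334 (interval 0.195 to 0.548). Over all genes 17.4% were at least 2-fold lower and the ratio was 0.611. The part of copies in the differences between the libraries was not tested. *Cox17*, *Atp5a1*, *Atp5d*, *Sdha*, *Sdhd*, *Uqcrfs1*, *Uqcrc2*, *Cox4i1*, *Ndufb9* and *Ndufb10* were among the 35 members with 0%.

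**Figure D4:**
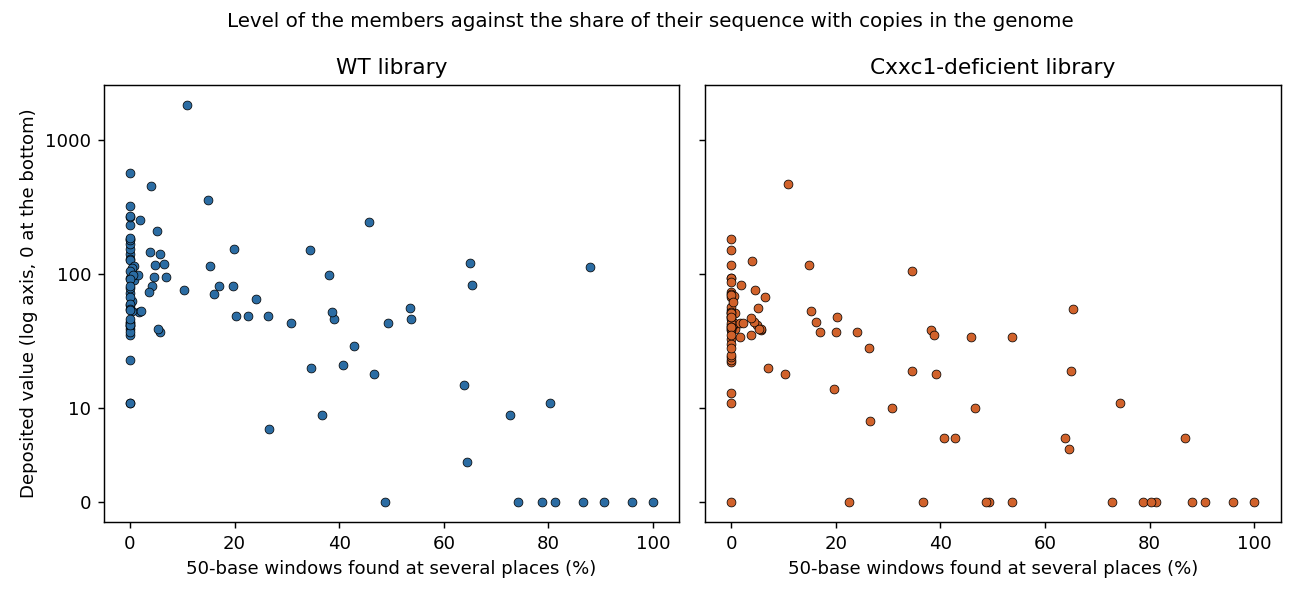
Deposited value (log axis, 0 at the bottom) of each member against the share of the 50-base windows of its transcript found at several places in the genome, for the WT library on the left and the *Cxxc1*-deficient library on the right. Members at 0 in both libraries sit at the right, from 48.8% upward, and the level of the members falls away as the share grows.

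Members at least 2-fold lower did not stand out by more CpG in their promoters. Leaving out the tissue-restricted isoforms, their windows held a median of 18 CpG, and those of members above 0 that were not 2-fold lower held 23. Most of the latter were lower too, as 77 of the 86 members above 0 other than isoforms were lower and 45 at least 2-fold lower. The NRF1 letters were present in 5.41% of windows of members at least 2-fold lower and in 18.6% of the others, the ETS letters in 24.3% and 25.6%, and the YY1 letters in 13.5% and 20.9%. At these numbers of windows, 37 and 43, a few windows set each share. The 4 windows of tissue-restricted isoforms that were matched held a median of 8.5 CpG.

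The genes of factors known to act through these motifs had means above 100, a level at which 95.2% of all genes were lower and the median ratio was 0.471. *Nrf1* was 240 in WT and 95 in the deficient library (ratio 0.396, interval 0.255 to 0.585). *Gabpa* was 489 and 171 (ratio 0.350, interval 0.268 to 0.450), and *Yy1* 302 and 132 (ratio 0.437, interval 0.332 to 0.576). The interval of *Gabpa* lay below that median ratio, and those of *Nrf1* and *Yy1* spanned it. *Gabpb1*, on the same list, was 366 and 185 (ratio 0.505, interval 0.417 to 0.608), and its interval spanned that median ratio too. *Tfam*, which packages and transcribes the mitochondrial genome, was 95 and 44 (ratio 0.463, interval 0.310 to 0.676). The coactivator genes *Ppargc1a* and *Ppargc1b*, by contrast, were near the median of all genes in both libraries, at 38 and 43, and 35 and 44. Of the 12 regulators listed, 8 were lower (all genes: 60.0%) and 5 at least 2-fold lower (17.4%), and no test links their levels to those of the members.

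Many members stand head to head with another gene. In GENCODE vM1, 25 of the 100 members had a protein-coding gene on the opposite strand whose annotated 5′ end lay at most 1000 bases upstream of their own, against 7.30% of the 18578 genes of the table that are protein-coding in the annotation. In 23 of these pairs both genes were listed above 0 in at least 1 library, and in 15 both were lower in *Cxxc1*-deficient cells. In 4 pairs both were at least 2-fold lower, among them the first 2 pairs named next. Singly, 87.2% of the members above 0 and 60.0% of all genes were lower, and 17.4% of all genes were at least 2-fold lower. The shares over all head-to-head pairs were not computed, so whether partners go together was not tested. *Sdhd* and *Timm8b*, which encodes a chaperone of the intermembrane space, have 5′ ends 52 bases apart. *Sdhd* was 271 and 73 and *Timm8b* 85 and 21, ratios of 0.269 and 0.247. *Ndufb9* and *Tatdn1*, 80 bases apart, were 230 and 94, and 71 and 21. Other pairs went apart, as *Ndufaf7* was 39 in both libraries while *Cebpz*, 65 bases away, was 215 and 78. In 7 of the 23 pairs the member was at least 2-fold lower and the partner was not.

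Mitochondrial ribosomal protein genes, which serve the same organelle, were set beside the members. Of 74 above 0, 61 were lower (all genes: 60.0%) and 25 at least 2-fold lower (17.4%), with a median log2 ratio of -0.68. Their summed reads had a ratio of 0.659 (interval 0.607 to 0.715), whose interval did not overlap with that of the members (0.376 to 0.428). Only 1 of them had a mean of at least 100, against 15 of the members, and in the band from 50 to 100 the ratios were 0.648 (interval 0.582 to 0.722) and 0.491 (interval 0.440 to 0.546). Under a mean of 50, where 42 of the 74 lay, the sets were alike. The ratios there were 0.659 (interval 0.576 to 0.752) and 0.630 (interval 0.531 to 0.746), with 33.3% and 35.7% at least 2-fold lower. Cytosolic ribosomal protein genes had copies for most of their sequence, with a median of 80.5% of windows at several places, and 26 of 85 were at 0 in both libraries. The ratio of their summed reads was 0.517 (interval 0.452 to 0.590), on approximately 734 reads in WT, of which 505 fell on 6 genes at or above 100. Genes of S6 kinases, a binding protein and pseudogenes with like symbols were not counted among them.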

How the data were processed

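The RNA-seq data comprised 2 libraries of DP thymocytes, the WT library and the *Cxxc1*-deficient library, which were grouped by their titles. The authors sequenced mRNA libraries in 50-base reads, mapped them to mm9, kept uniquely mapped reads and summarised them per gene in Partek; the submitters' processing notes name CASAVA 1.8.2 and Bowtie 1.0.1. The table deposited by the authors gives a score per gene and library, that is, normalized expression in whole numbers, and its unit and gene annotation are not given in the sources used here. They are not counts, so no count test was run.

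Approximate reads came from the steps of the deposited values. Where a value is the number of reads over the length and a library constant, short genes with 1 annotated length share that constant. Non-members of at most 1000 bases gave 246600 in WT (1474 genes) and 212570 in the deficient library (1445 genes). Members with 1 annotated length, which were not used for this, came out whole within 0.15 reads in 17 of 24 cases in WT and 24 of 28 in the deficient library. Lengths came from the GENCODE vM1 transcript (on NCBIM37, the build of mm9) with the longest coding sequence, matched by symbol for 19094 genes and all 100 members, 4 through an older symbol. Whether the authors used the same transcripts is not known, so reads and intervals are approximate. PCR duplicates cannot be told from separate molecules.

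Ratios were taken between deposited values raised to at least 1, with a threshold of 2-fold as in the study. Genes at 0 in both libraries were left out of shares. A member is counted in the sums and counts but not reported here by name or drawn by name. Copies were places in NCBIM37 that match a 50-base window of a transcript with at most 2 mismatches. Members named in the text are *Cox17*, in each group the 3 of highest mean and those with the largest fall and the largest rise (or smallest fall) among members above 0 in both libraries and at or above the median of all genes, the isoforms of complex IV, the c subunit genes and members at 0. Further genes, among them head-to-head partners, were picked with their values in view. The members, the pathway lists and the marker lists were chosen with earlier results of these data known. Markers were listed for DP and DN thymocytes, mature single-positive cells, B cells, erythroid cells, macrophages and dendritic cells, and thymic epithelium. Alternatives were 5 scalings of the libraries, pseudocounts of 1 and 10, filters on low values, thresholds of 1.5 and 3-fold, subunits only, members with few copies, and members at 0 set to the value of 3 reads. The procedure was tested on simulated data. Scripts ran in Python 3.11.15 with scipy 1.17.1, numba 0.67.0, pandas 2.3.3, numpy 2.4.6 and matplotlib 3.10.9.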

Additional observations from a re-analysis of the deposited data

How the results depend on the processing

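The share of members that were lower and the size of their median depended on how the libraries were scaled to each other. It was 87.2% with the values as deposited, 76.6% at the same 75th percentile of genes above 0, 66.0% at the same sum without the 100 highest genes, 62.8% at the same sum over all genes and 100% among members at or above a mean of 100. When both libraries were given an equal median of the genes at or above 100, a choice made after seeing the data that shifts every log2 ratio by 1.08, it was 48.9%, with 48 members higher. The median log2 ratio, -0.90 as deposited, was -0.52, -0.34, -0.24, -1.63 and 0.18 under the same choices. The number of members at least 2-fold lower, 46 as deposited, was 27 at the same sum, 16 at the equal median of genes at or above 100 and 13 under the filter at 100. At least 2-fold higher were 4 members as deposited, 14 at the equal median of genes at or above 100, 2 each with a pseudocount of 10, a filter on a mean of 10, members with few copies and members at 0 set to 3 reads, and 0 under the filter at 100. The ratio of *Ndufaf4*, 0.568 as deposited, was 1.2 at the equal median of genes at or above 100. At the same median of genes above 0, with a pseudocount of 1, with thresholds of 1.5 and 3-fold and with subunits only, the directions held and the counts stayed within 1.5 times. No paired analysis was possible because there is 1 library of each genotype. Depth limits short members and those with low values, behind which stand a few reads, and *Cox17* rests on approximately 20 reads and 1 read.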

Other observations

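The enzymes of the tricarboxylic acid cycle, which supply NADH and succinate to complexes I and II, had medians of 133 (WT) and 62.5 (deficient library). Of 16 genes listed, 15 were lower and 8 at least 2-fold lower, with a median log2 ratio of -1.01 and a ratio of summed reads of 0.481 (interval 0.435 to 0.531). Over all genes 60.0% were lower and 17.4% at least 2-fold lower, and among genes at or above 100 these shares were 95.2% and 56.8%, with a median log2 ratio of -1.08 and a ratio of summed reads of 0.455. *Cs*, citrate synthase, was 229 in WT and 75 in the deficient library (ratio 0.328, interval 0.229 to 0.457). *Pdha1*, a subunit of pyruvate dehydrogenase, was 353 and 94 (ratio 0.266, interval 0.196 to 0.357), and *Idh2* was 169 and 36 (ratio 0.213, interval 0.105 to 0.376). *Ogdh* was 126 and 97 and *Mdh2* 187 and 125, with intervals that spanned 1, and *Suclg2* was the gene that was not lower, at 23 and 26.

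A list of 26 genes held the somatic and testis forms of cytochrome c and assembly or stability factors outside the symbols used here. Of the 25 above 0, 22 were lower (all genes: 60.0%) and 6 at least 2-fold lower (17.4%). The 19 of them with approximate reads had a ratio of summed reads of 0.724 (interval 0.635 to 0.824), and among those left out of it *Coa3* was 68 and 20, *Coa5* 223 and 106, and *Uqcc2* 43 and listed at 0. *Cycs*, somatic cytochrome c, was 23 and 20, and *Cyct*, the testis form, 37 and 14. *Atpif1*, the inhibitor of ATP hydrolysis by complex V, was 188 and 87 (ratio 0.463, interval 0.199 to 1.00), and *Sdhaf2*, which attaches the flavin to complex II, was 120 and 65 (ratio 0.542, interval 0.368 to 0.787). *Lyrm7*, which matures the Rieske protein, was 50 and 76 (ratio 1.52, interval 0.885 to 2.54).

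Markers of other cells were low in both libraries. Of 5 B cell markers 4 were lower, with a ratio of summed reads of 0.795 (interval 0.543 to 1.15). The ratio was 0.785 (interval 0.441 to 1.37) for the 3 of 5 erythroid markers above 0, 1.16 (interval 0.80 to 1.68) for 4 macrophage and dendritic cell markers, 0.873 (interval 0.631 to 1.21) for 5 markers of thymic epithelium and 0.870 (interval 0.658 to 1.15) for 4 markers of mature single-positive cells. *Hba-a1* and *Hba-a2* were listed at 0 in both libraries.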
